A study of Homo sapiens with 4 samples.

Results

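A set of 8 genes of the mitochondrial chromosome was examined, the tRNA genes that lie on the plus strand downstream of MT-CO1. The set was proposed with earlier results of these data known, and its rule uses annotation and no measured value. It takes the rows on chromosome M and the plus strand that are shorter than 100 bases and start after position 7445, the end of MT-CO1. The rule found 8 genes of the 62700 in the table, and 22 of the 37 mitochondrial genes are tRNA genes in all. The 8 carry aspartate (MT-TD), lysine (MT-TK), glycine (MT-TG), arginine (MT-TR), histidine (MT-TH), serine (MT-TS2), leucine (MT-TL2) and threonine (MT-TT).

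The RNA came from HEK293T cells, a human line of embryonic kidney origin, here a stable clone with a V5-tagged PRADA construct under the CMV promoter that is sent to the mitochondrial matrix. The labelled group (2 libraries) received 100 µM of the uridine analogue s4U for 5 h, then s4U with 0.5 mM alkyne phenol for 30 min, and finally D-amino acid at 10 mM (30 min), which starts the labelling reaction. Its libraries are those whose titles add DF, an abbreviation that the labels do not spell out, and whose library names say Target. The unlabelled group (2 libraries) received s4U and alkyne phenol in the same way but no D-amino acid. Every library therefore carries the construct, s4U and alkyne phenol, and the groups differ in the D-amino acid alone, as far as the labels say. The titles call the libraries biological replicates without saying how cultures were kept apart, and the p-values refer to the spread among these 4 libraries, which may be technical.

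Both strands of the human mitochondrial chromosome are transcribed as long precursors, in which tRNAs sit between most mRNAs and rRNAs like punctuation. RNase P (TRMT10C, HSD17B10 and PRORP) cuts at the 5′ end of each tRNA and ELAC2 at the 3′ end, which also frees the mRNA on either side, and TRNT1 then adds CCA to the tRNA. Mature tRNAs are short, tightly folded and modified, and standard RNA-seq libraries capture them poorly. Counts at a tRNA gene can come from the mature tRNA or from short pieces of precursor, and these cannot be told apart here.

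The gene sequences are shown because the anticodon sets which tRNA is meant and the uridines are where s4U can enter. They are the plus-strand DNA of GRCh38 from the GENCODE 29 transcripts, 5′ to 3′, and the capitals mark the anticodon, located as the bases of a 7-base loop that read a codon for the named amino acid.
MT-TD, chrM:7518-7585, plus strand: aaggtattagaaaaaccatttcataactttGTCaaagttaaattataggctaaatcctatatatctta
MT-TK, chrM:8295-8364, plus strand: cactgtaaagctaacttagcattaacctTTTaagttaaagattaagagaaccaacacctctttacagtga
MT-TG, chrM:9991-10058, plus strand: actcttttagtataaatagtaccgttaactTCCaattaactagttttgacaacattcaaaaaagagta
MT-TR, chrM:10405-10469, plus strand: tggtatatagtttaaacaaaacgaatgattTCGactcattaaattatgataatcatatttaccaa
MT-TH, chrM:12138-12206, plus strand: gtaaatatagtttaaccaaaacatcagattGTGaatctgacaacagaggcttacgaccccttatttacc
MT-TS2, chrM:12207-12265, plus strand: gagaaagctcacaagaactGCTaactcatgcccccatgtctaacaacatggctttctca
MT-TL2, chrM:12266-12336, plus strand: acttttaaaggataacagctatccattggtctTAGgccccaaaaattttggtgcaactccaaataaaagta
MT-TT, chrM:15888-15953, plus strand: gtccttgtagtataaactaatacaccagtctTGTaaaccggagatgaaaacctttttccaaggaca

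The genes are 59 to 71 bases long, and MT-TS2 is the shortest because this serine tRNA lacks the D-arm that other tRNAs have. Its anticodon stem also paired at 3 of 5 positions, where MT-TL2 and MT-TT paired at 4 and the other genes at all 5. MT-TH, MT-TS2 and MT-TL2 adjoin each other with 0 bases between them and lie between MT-ND4 and MT-ND5. MT-TG (between MT-CO3 and MT-ND3) and MT-TR (between MT-ND3 and MT-ND4L) touch an mRNA gene on both sides. MT-TD lies 3 bases after MT-TS1, a serine tRNA of the minus strand, and touches MT-CO2. MT-TK has 25 bases with no gene before it and 1 base before MT-ATP8. MT-TT touches MT-CYB and ends 2 bases before MT-TP, the proline tRNA of the minus strand. The stretch that no other gene covers was thus 59 to 96 bases around each tRNA, and a fragment that reached past it also touched a neighbour.

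All 8 tRNAs rose in labelled libraries. Together they held 5432 and 10777 fragments in the labelled libraries, against 1238 and 1588 in the unlabelled libraries. This was 0.0579% and 0.0877% of all assigned fragments in the labelled libraries, against 0.0151% (95% Wilson interval 0.0143 to 0.0160%) and 0.0275% (0.0262 to 0.0289%) in the unlabelled libraries. The mean share was 0.0728% ± 0.0211 in labelled and 0.0213% ± 0.00874 in unlabelled libraries (SD, n = 2 each), a 3.41-fold difference, and the groups did not overlap. Such intervals cover counting error only, because the labels name no molecular identifiers. In bulk libraries, a higher share in every cell and a higher share in some of the cells cannot be told apart.

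Gene by gene, edgeR's quasi-likelihood test called 8 of 8 higher at an adjusted p under 0.05, with 0 lower. This was not particular to the 8, as 11 of the 12 other mitochondrial tRNAs tested were also called higher, with 0 lower. Among all 18973 genes tested, 0.269% were called higher and 0.0158% lower. The median log2 fold change was 2.05 over the 8 tRNAs and -0.01 over all genes tested, beside 2.06 over the 12 tested of the 14 other mitochondrial tRNAs and 1.96 over the 13 mitochondrial mRNAs. Libraries of a group also differed among themselves: all 8 tRNAs stood higher in replicate 2 of each group, by a median of 0.57 (labelled) and 0.89 (unlabelled) on the log2 CPM scale. The 13 mRNAs differed by medians of 0.24 (labelled) and 0.21 (unlabelled). Leaving out unlabelled replicate 2 put the median log2 fold change of the 8 tRNAs at 2.60, and leaving out unlabelled replicate 1 put it at 1.74.

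MT-TS2, which reads the AGC and AGU serine codons, held the most fragments of the 8 in all libraries but unlabelled replicate 2, where MT-TR held more. It stood at 163 and 308 CPM in labelled libraries, against 36.1 and 43.0 CPM in unlabelled libraries (CPM, counts scaled by the TMM-adjusted library size). The lower labelled library was well above both unlabelled ones, and the labelled pair was the more widely spread. The log2 fold change was 2.58 ± 0.25 (SE), with an edgeR adjusted p of 4.05e-04.

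MT-TT, the threonine tRNA at the end of this stretch and the last gene before the control region on its strand, was the rarest. Labelled libraries held 113 and 168 fragments, or 13.2 and 16.2 CPM. Unlabelled libraries held 13 and 19 fragments, or 1.45 and 2.87 CPM, where 3 fragments corresponded to 0.334 and 0.453 CPM. The fitted log2 change, 2.82 ± 0.30 with an edgeR adjusted p of 0.00115, was the largest of the 8 with all 4 libraries and ranked 4 among all genes tested, resting on few fragments in the unlabelled libraries. MT-TS2 exceeded it without unlabelled replicate 1 (2.39 for MT-TT and 2.49 for MT-TS2) and without labelled replicate 1 (2.97 for MT-TT and 2.99 for MT-TS2).

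MT-TG, the glycine tRNA, stood at 79.5 and 145 CPM in labelled libraries, against 14.4 and 27.0 CPM in unlabelled libraries. It rose by 2.47 ± 0.29 log2 units, at an adjusted p of 0.00227 in edgeR. The labelled libraries lay far above the unlabelled ones, and in both groups replicate 2 was the higher.

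MT-TD, the aspartate tRNA, had 56.9 and 83.1 CPM in labelled libraries, against 12.4 and 21.0 CPM in unlabelled libraries. The rise was 2.10 ± 0.23 log2 units at an adjusted p of 0.00124 in edgeR, with no overlap between the groups. The histidine tRNA MT-TH had 72.9 and 109 CPM in labelled libraries, against 17.6 and 28.8 CPM in unlabelled libraries, and rose by 1.99 ± 0.23 (edgeR adjusted p 0.00172).

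MT-TK, which decodes lysine, had 84.4 and 136 CPM in labelled libraries, against 19.9 and 36.5 CPM in unlabelled libraries. The rise was 1.99 ± 0.26 on the log2 scale, with an edgeR adjusted p of 0.00473. Every library ranked MT-TK above MT-TH in CPM.

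MT-TL2 had the smallest rise of the 8 and MT-TR the next, although the place of MT-TR rests on 1 library. MT-TR, the arginine tRNA, stood at 99.3 and 145 CPM in labelled libraries, against 19.3 and 48.0 CPM in unlabelled libraries. MT-TL2, one of the pair of mitochondrial leucine tRNAs, stood at 64.2 and 94.0 CPM in labelled libraries, against 16.8 and 32.4 CPM in unlabelled libraries. Groups of both genes were apart, and unlabelled replicate 2 was the unlabelled library closer to the labelled ones. The log2 fold changes were 1.89 ± 0.31 for MT-TR and 1.71 ± 0.25 for MT-TL2, with edgeR adjusted p-values of 0.0211 and 0.0107. Without unlabelled replicate 2 the log2 fold change of MT-TR was 2.68, above 2.52 for MT-TD, 2.48 for MT-TK and 2.38 for MT-TH, and that of MT-TL2 was 2.25. DESeq2 did not call either gene (adjusted p 0.460 for MT-TR and 0.158 for MT-TL2), and called the other 6, where it called 0.325% of all genes it tested higher. The labelled and unlabelled libraries did not overlap for any of the 8, as for 22.2% of all genes tested in the direction of higher labelled values.

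The call of all 8 by edgeR held under the other settings, which called very different shares of all genes higher. These shares were 0.274% with RLE scaling, 0.364% with library size alone, 0.461% with no filter on low counts, 0.259% with the CPM filter and 0.738% with a replicate block. Leaving out 1 library gave 11.6% (without unlabelled replicate 1), 2.06% (without unlabelled replicate 2), 0.367% (without labelled replicate 1) and 0.236% (without labelled replicate 2), and all 8 tRNAs were called each time.

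**Figure D1:**
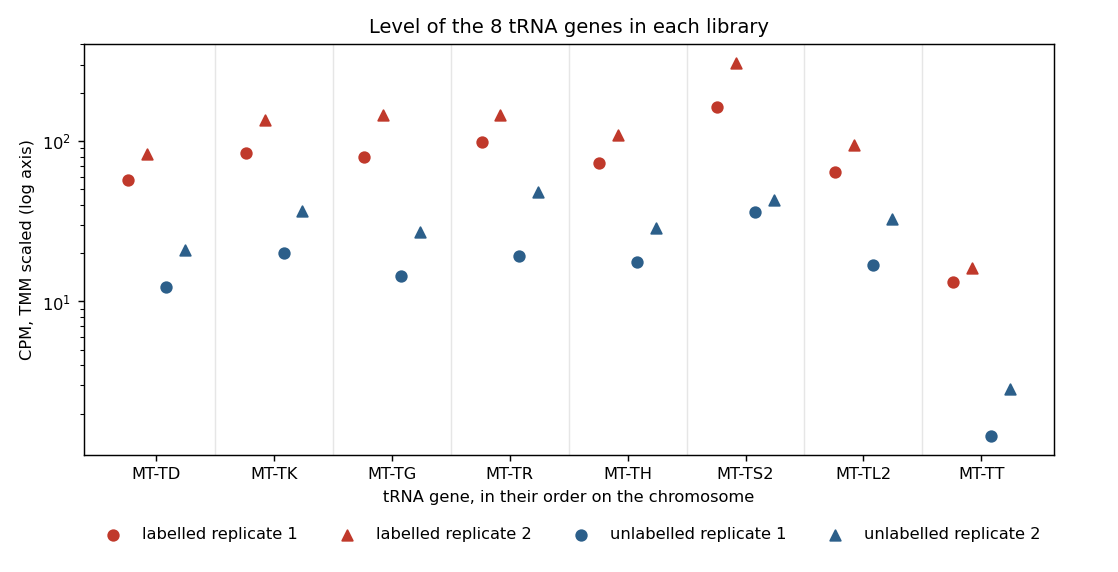
CPM after TMM scaling (log axis) of each of the 8 tRNA genes, with 1 point per library, labelled libraries in red and unlabelled libraries in blue. For every gene both labelled points lie above both unlabelled points, with MT-TS2 highest at 308 CPM in labelled replicate 2 and MT-TT lowest at 1.45 CPM in unlabelled replicate 1.

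Counts were also expressed per gene length, as CPM per kilobase. The stretch free of other genes differs from gene to gene (59 bases at MT-TS2, 96 at MT-TK), so the order below is one of counts per length and not of tRNA abundance. MT-TS2 averaged 3992 ± 1741 in labelled and 670 ± 82.9 in unlabelled libraries (SD, n = 2 each), and MT-TT 222 ± 32.0 in labelled and 32.7 ± 15.2 in unlabelled libraries. In labelled libraries the order between these ends was MT-TR at 1879 ± 496, MT-TG at 1653 ± 684, MT-TK at 1574 ± 520, MT-TH at 1319 ± 371, MT-TL2 at 1114 ± 296 and MT-TD at 1030 ± 272 CPM per kilobase. Neighbours in that order from MT-TR to MT-TD differed by less than their spread between libraries. Within the 2 labelled libraries the order was still the same, except that MT-TG and MT-TK changed places. MT-TS2 lay above MT-TR and MT-TT below MT-TD without overlap. In unlabelled libraries MT-TS2 and MT-TR did overlap, at 612 and 729 CPM per kilobase for MT-TS2 and 296 and 738 for MT-TR. Within each of the 4 libraries MT-TD ranked 7 and MT-TT ranked 8 per length, while MT-TS2 ranked 1 in all but unlabelled replicate 2, where MT-TR did.

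Shares among the 8 tRNAs show how their rises differed, with no scaling between libraries. MT-TG made up 12.6% and 14% of their fragments in labelled libraries, against 10.4% and 11.3% in unlabelled libraries. MT-TT made up 2.08% and 1.56% in labelled libraries, against 1.05% and 1.20% in unlabelled libraries. Both genes thus took a larger part in the labelled libraries, without overlap of these values. Their Wilson intervals did overlap between some labelled and unlabelled libraries.

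MT-TL2 went the other way, with 10.1% and 9.07% in labelled libraries, against 12.2% and 13.5% in unlabelled libraries. MT-TK had 13.3% and 13.1% in labelled libraries, against 14.5% and 15.2% in unlabelled libraries. MT-TH had 11.5% and 10.5% in labelled libraries, against 12.8% and 12.0% in unlabelled libraries, so the labelled shares of all 3 genes were the lower ones. Wilson intervals of these 3 genes also overlapped between some labelled and unlabelled libraries. For the 5 genes MT-TG, MT-TT, MT-TL2, MT-TK and MT-TH the exact permutation test gave p = 0.333 each, two-sided, the smallest p that the 6 arrangements of 2 against 2 libraries allow. The groups overlapped for MT-TD, MT-TR and MT-TS2. MT-TS2 had 25.7% and 29.7% in labelled libraries, against 26.2% and 17.9% in unlabelled libraries, so unlabelled replicate 2 stood alone.

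**Figure D2:**
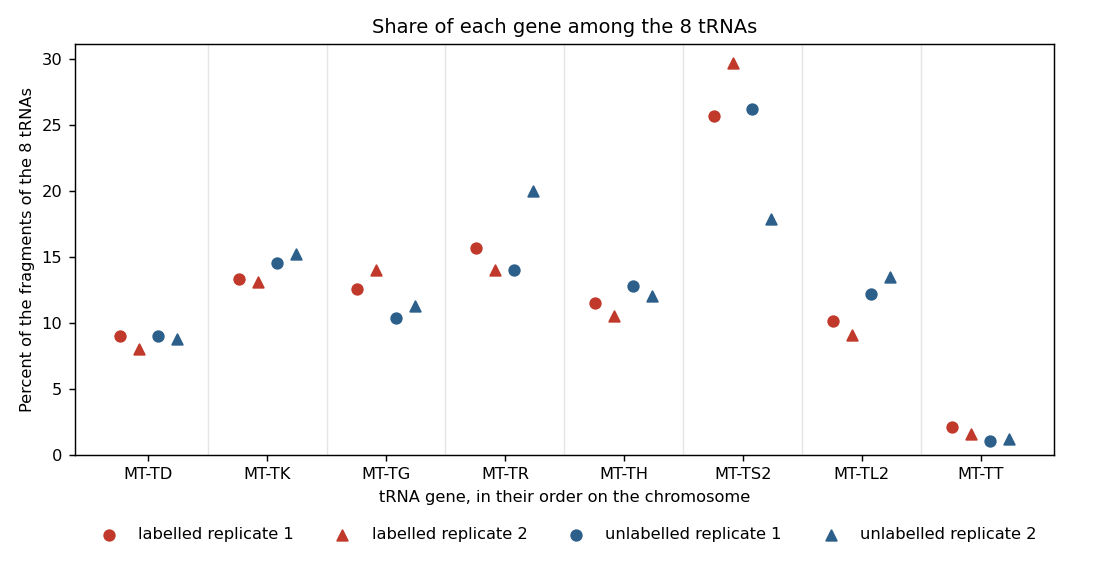
Percent of the fragments of the 8 tRNA genes that each gene took in each library, labelled in red and unlabelled in blue. MT-TS2 took the largest part in all libraries but unlabelled replicate 2, where it had 17.9% and MT-TR 20.0%.

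Each tRNA was then set against the protein-coding genes that flank it, from which it is cut. Ratios of fragments within a library need no scaling between libraries. For MT-TD, which lies between MT-CO1 and MT-CO2 (core subunits of cytochrome c oxidase), there were 0.566 and 0.718 tRNA fragments per 1000 fragments of both flanks in labelled libraries, against 0.503 and 0.866 in unlabelled libraries. The groups overlapped, and the log2 ratio differed by -0.05 (labelled minus unlabelled). The tRNA and its flanks had log2 fold changes of 2.10 (MT-TD), 2.18 (MT-CO1) and 2.08 (MT-CO2).

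MT-TK lies between MT-CO2 and MT-ATP8, a small subunit of the ATP synthase, and stood differently to each. Against MT-CO2 it had 2.80 and 3.77 fragments per 1000 in labelled libraries, and 2.27 and 5.30 in unlabelled libraries. These overlapped, with a log2 difference of -0.10. Against MT-ATP8 it had 20.3 and 25.2 per 1000 in labelled libraries, and 7.88 and 7.42 in unlabelled libraries. That is a log2 difference of 1.56, where the SD between libraries was 0.22 (labelled) and 0.06 (unlabelled), without overlap (exact permutation p = 0.333). MT-ATP8 itself did not pass the threshold, at 0.36 ± 0.33 log2 units (adjusted p 0.697, edgeR). It passed without unlabelled replicate 2 (0.92, adjusted p 4.28e-04, edgeR), and stood at -0.01 without unlabelled replicate 1 and with library size alone.

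MT-TG and MT-TR stand on either side of MT-ND3, a short complex I mRNA that missed the threshold at 0.78 ± 0.31 log2 units (adjusted p 0.381, edgeR). Missing it was not particular to MT-ND3, as edgeR called only 4 of the 13 mitochondrial mRNAs. The flanks MT-CO1 (edgeR adjusted p 0.15), MT-CO2 (0.0845), MT-ND4L (0.0934), MT-ND4 (0.0948) and MT-ND5 (0.141) missed it too. DESeq2 called 11 of the 13 mRNAs, but neither MT-ND3 nor MT-ATP8. MT-ND3 passed without unlabelled replicate 2 (1.24, adjusted p 5.39e-07, edgeR) and with no filter on low counts (0.82, adjusted p 1.13e-04, edgeR), so its lack of a call depends on these choices. Per 1000 MT-ND3 fragments there were 17.2 and 24.8 of MT-TG in labelled libraries, against 6.46 and 6.98 in unlabelled libraries. For MT-TR there were 21.5 and 24.8 in labelled libraries, against 8.66 and 12.4 in unlabelled libraries. The log2 differences were 1.62 for MT-TG and 1.15 for MT-TR, and neither pair of groups overlapped (exact permutation p = 0.333 each).

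On their other sides both tRNAs overlapped between the groups. Against MT-CO3, a further subunit of cytochrome c oxidase, MT-TG had 4.30 and 6.98 fragments per 1000 in labelled libraries, and 2.92 and 5.24 in unlabelled libraries. Against MT-ND4L, another small complex I subunit, MT-TR had 16.9 and 21.5 per 1000 in labelled libraries, and 12.1 and 17.3 in unlabelled libraries. The log2 differences were 0.48 for MT-TG and 0.40 for MT-TR (exact permutation p = 0.667 each). MT-ATP8 and MT-ND3 are among the shortest mitochondrial mRNA genes, at 207 and 346 bases, and part of MT-ATP8 overlaps MT-ATP6. MT-ND4L is as short, at 297 bases, and overlaps MT-ND4, with a log2 fold change of 1.53 ± 0.31. What length and overlap add to these ratios was not tested. Fragments that were ambiguous between genes made up 9.24% and 9.02% of assigned plus ambiguous fragments in labelled libraries, against 11.3% and 12.8% in unlabelled libraries, over all genes.

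**Figure D3:**
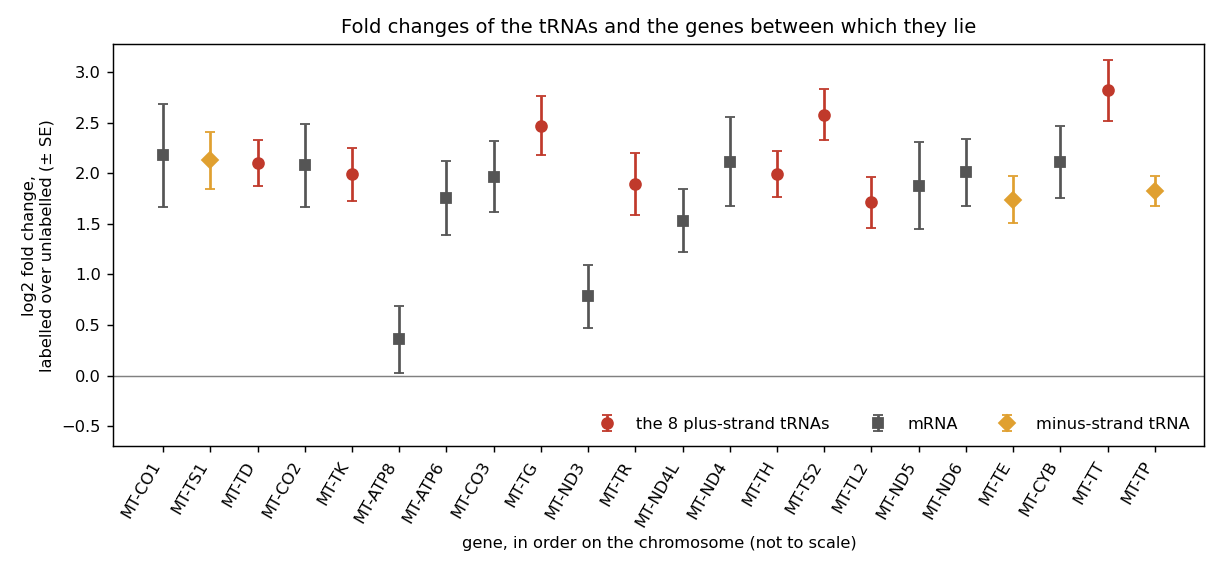
Log2 fold change (labelled over unlabelled, ± SE) from the edgeR fit for each gene from MT-CO1 to MT-TP in chromosome order, with the 8 plus-strand tRNAs as red circles, mRNAs as grey squares and minus-strand tRNAs as yellow diamonds. The tRNAs lie between 1.71 and 2.82, while MT-ATP8 at 0.36 and MT-ND3 at 0.78 lie below the tRNAs next to them.

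MT-TH, MT-TS2 and MT-TL2 share their flanks, the complex I mRNAs MT-ND4 (log2 fold change 2.12) and MT-ND5 (1.88), yet differed among themselves. Per 1000 fragments of both flanks MT-TS2 had 2.33 and 3.55 in labelled libraries, against 2.06 and 1.98 in unlabelled libraries, a log2 difference of 0.50 without overlap (exact permutation p = 0.333). MT-TH had 1.04 and 1.26 in labelled libraries, against 1.01 and 1.33 in unlabelled libraries, a difference of -0.02. MT-TL2 had 0.919 and 1.08 in labelled libraries, against 0.962 and 1.5 in unlabelled libraries, a difference of -0.27. The last 2 ratios overlapped between the groups.

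Set against each other, MT-TS2 had 2.24 and 2.83 fragments per MT-TH fragment in labelled libraries, against 2.05 and 1.49 in unlabelled libraries. Per MT-TL2 fragment MT-TS2 had 2.54 and 3.28 in labelled libraries, against 2.15 and 1.33 in unlabelled libraries. MT-TH and MT-TL2 lay closer to each other, at 1.13 and 1.16 MT-TH fragments per MT-TL2 fragment in labelled libraries, against 1.05 and 0.888 in unlabelled libraries. All 3 ratios were larger in both labelled libraries than in either unlabelled one. The gaps were smallest between labelled replicate 1 and unlabelled replicate 1, and MT-TH and MT-TL2 held only 158 and 151 fragments in the latter. The log2 differences were 0.52 (MT-TS2 to MT-TH), 0.77 (MT-TS2 to MT-TL2) and 0.25 (MT-TH to MT-TL2), with an exact permutation p of 0.333 each.

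MT-TT follows MT-CYB, which encodes cytochrome b of complex III (log2 fold change 2.11). It had 0.655 and 0.744 fragments per 1000 of MT-CYB in labelled libraries, against 0.316 and 0.560 in unlabelled libraries, a log2 difference of 0.69 without overlap (exact permutation p = 0.333). Against the adjoining minus-strand tRNA MT-TP, which rose by 1.83 ± 0.15 at an adjusted p of 1.04e-04 in edgeR, MT-TT had 69.4 and 81.6 fragments per 1000 in labelled libraries and 30.0 and 46.7 in unlabelled libraries. That log2 difference was 1.01, also without overlap (exact permutation p = 0.333). MT-TD and its minus-strand neighbour MT-TS1 kept 4.83 and 5.61 MT-TD fragments per MT-TS1 fragment in labelled libraries, against 5.29 and 5.35 in unlabelled libraries. The counts took no account of strand, so RNA of the opposite strand over these genes is included.

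**Figure D4:**
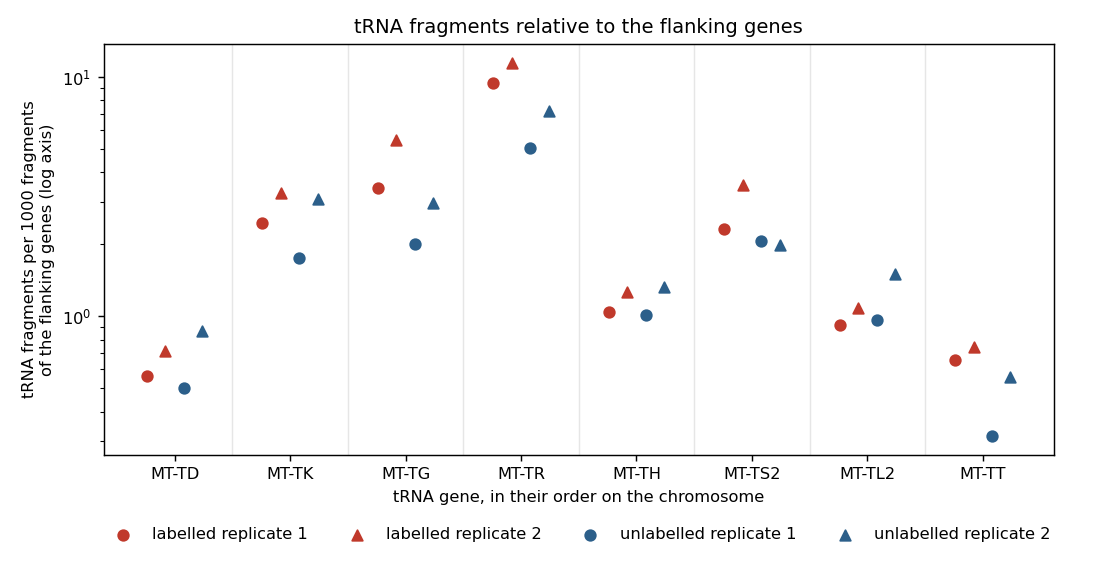
Fragments of each tRNA per 1000 fragments of its flanking protein-coding genes (log axis; MT-CYB alone for MT-TT), 1 point per library, labelled in red and unlabelled in blue. The groups are apart for MT-TG, MT-TR, MT-TS2 and MT-TT and overlap for MT-TD, MT-TK, MT-TH and MT-TL2, and MT-TR is highest at 11.5 in labelled replicate 2.

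Per base, tRNA genes were read far less than their flanks. Density at MT-TS2 was 12.2% and 18.7% of the mean density of its flanks in labelled libraries, against 10.9% and 10.6% in unlabelled libraries. At MT-TT the values were 1.13% and 1.29% in labelled libraries, against 0.546% and 0.968% in unlabelled libraries. The other 6 tRNAs lay between, from 1.87% for MT-TD to 11.3% for MT-TR in labelled libraries, and from 1.57% for MT-TD to 7.19% for MT-TR in unlabelled libraries. Only fragments short enough for the stretch of 59 to 96 bases free of other genes touch a tRNA gene alone, so these are not densities of mature tRNA.

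As a group, the 8 tRNAs were not shown to differ from the rest of the mitochondrial transcripts in their rise. Per 1000 fragments of the 13 mRNAs they had 2.20 and 3.04 in labelled libraries, against 1.82 and 2.72 in unlabelled libraries. The log2 difference of 0.21 was smaller than the SD between libraries of 0.33 (labelled) and 0.41 (unlabelled), and the groups overlapped. For each fragment of the other 14 tRNAs they had 0.472 and 0.517 in labelled libraries, against 0.506 and 0.435 in unlabelled libraries, a log2 difference of 0.07. The groups overlapped here too.

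The genes whose pattern over the 4 libraries was most like the mean of the 8 were 5 minus-strand mitochondrial tRNAs. They were MT-TY (root mean square difference 0.119 in centred log2 CPM), MT-TS1 (0.132), MT-TC (0.134), MT-TN (0.143) and MT-TQ (0.175), out of 12648 genes with a mean of at least 5 CPM. Among the 8 themselves the difference from their mean ran from 0.0595 for MT-TD to 0.291 for MT-TT.

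The uridines, where s4U can enter, made up 22% of MT-TS2 to 35.4% of MT-TR, counted as T in the sequences above. Across the 8 genes Spearman's rho between this percentage and the log2 fold change was -0.50. It was -0.39 over the 12 other tRNAs tested and 0.00 over all 35 mitochondrial genes tested. These genes share libraries and precursors, so the values describe the genes and test nothing.

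Nuclear genes for the transcription, processing, modification and charging of mitochondrial RNA, whose mRNAs lie outside the matrix, gave no calls in the same test, which called 0.285% of all genes in either direction. An unadjusted p under 0.05 was far more common, at 2191 of all 18973 genes tested, and the counts at that level below are to be read beside it. Of 19 genes for transcription (among them POLRMT and TFAM), processing and stability of mitochondrial RNA 0 were called, with a median log2 fold change of 0.05 and 1 at an unadjusted p under 0.05. PTCD1, which binds leucine tRNA precursors, was at 0.62 ± 0.23 (edgeR adjusted p 0.361) and LRPPRC, which stabilises mitochondrial mRNAs, at -0.28 ± 0.14 (0.481). Of 17 tRNA modification genes 0 were called (median 0.09, 2 at an unadjusted p under 0.05), with the initiator formyltransferase MTFMT at 0.44 ± 0.17 (0.371) and ALKBH1 at 0.35 ± 0.15 (0.412). Among the 8 synthetases that charge these tRNAs 0 were called (median 0.01, 2 at an unadjusted p under 0.05), with HARS2 for histidine at 0.44 ± 0.16 (0.330) and SARS2 for serine at -0.67 ± 0.26 (0.381). DESeq2 called 0 of the genes of these lists.

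Markers taken for HEK293T were read in every library, at very different levels. The 6 genes taken as HEK293T markers summed to 365 and 371 CPM in labelled libraries, against 396 and 329 CPM in unlabelled libraries, and 0 of 6 passed the edgeR threshold. Most of the sum was VIM and LIN28B. NEFM was near the floor, at 0.445 CPM in unlabelled replicate 1, where 3 fragments corresponded to 0.334 CPM. The 5 blood markers summed to 0.866 to 0.933 CPM in labelled and 0.223 to 1.51 CPM in unlabelled libraries, with CD3E and HBB at 0. The 5 markers of fibroblasts and endothelium summed to 20.9 to 21.0 CPM in labelled and 12.4 to 20.8 CPM in unlabelled libraries, nearly all COL1A1, with COL1A2 and DCN at 0. In every library COL1A1 stood above KRT8, PAX2 and NEFM of the HEK293T markers, and below VIM, KRT18 and LIN28B.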

How the data were processed

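The deposited table gives fragment counts per gene, raw and not normalized. Per the file headers the authors counted read pairs with featureCounts 1.6.4 over exons of GENCODE 44, both ends mapped, chimeric pairs left out, with no strand or multi-mapping option. The submitters' processing notes name STAR 2.7.9a, the build GRCh38 and DESeq2 1.42.0. Fragments that touch several genes equally stay unassigned, which weighs on genes as short as tRNAs, and fragments that map equally well elsewhere are left out. Per the labels' protocols ribosomal RNA was depleted. The labelled libraries held 9380258 and 12287451 assigned fragments and the unlabelled libraries 8172347 and 5771795, equal to the totals in the deposited table of assignment counts.

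All 62700 genes were paired with symbols. Counts were tested by the quasi-likelihood method of edgeR 4.0.16 (R 4.3.3), with filterByExpr and TMM scaling, with 4 libraries in 1 fit, no block, and Benjamini-Hochberg adjustment over 18973 genes (threshold 0.05). All 8 tRNA genes passed the filter. The SE of a fold change was taken from it and its F statistic, as |log2 change| over √F. Log2 CPM used a prior count of 2 and flank ratios a pseudocount of 0.5. Flanks are the nearest genes before and after that are no tRNA genes. Exact permutation tests were two-sided. Wilson intervals came from SciPy 1.17.1, sequences were handled in Python 3.11.15 with Biopython 1.88, and plots drawn with matplotlib 3.10.9. The fit was tested on simulated data. Alternatives were RLE scaling, library size alone, no filter, a filter of 1 CPM in 2 libraries, DESeq2 1.42.0, a replicate block and leaving out each library.

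The text names the 8 tRNAs, their flanking and adjoining genes, the 5 genes most like them in pattern, and from each nuclear list the called members or the 2 with the smallest p. Members and lists were chosen with earlier results of these data known. Sums over the 8 tRNAs are given with no p for that reason.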

Additional observations from a re-analysis of the deposited data

How the results depend on the processing

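All 8 tRNAs kept a positive log2 fold change under each of the 10 alternatives of the fit, and edgeR called all 8 in each edgeR alternative. DESeq2 called 6, with MT-TR at 1.90 (adjusted p 0.460) and MT-TL2 at 1.72 (0.158) missing the threshold, and the cause was not tested. The median over the 8 ran from 1.74 to 2.60 with 1 library left out, and stood at 1.68 with library size alone, where the median of all genes was -0.37 and the split of calls was 69 higher and 2675 lower. Over all genes the number called was 54, and became 2744 with library size alone, 302 with no filter on low counts, 236 with the replicate block, and 58 to 3985 with 1 library left out. The replicate block kept all 8 tRNAs. Over all genes tested, deviations of same-numbered libraries from their group means correlated at -0.0698, so the numbers were not taken to pair the libraries. The 8 tRNAs themselves all stood higher in replicate 2 of both groups. With 1 library left out, the lone library of its group is assumed to vary like the other group. The log2 ratio of the 8 tRNAs to the mRNAs ran from -0.0748 to 0.50, turning negative without unlabelled replicate 1 (-0.0748) and without labelled replicate 2 (-0.02), and was 0.27 and 0.16 within the replicate pairs (0.21 with the replicate block). The ratio to the other 14 tRNAs ran from -0.0336 without unlabelled replicate 2 to 0.18. The number of tRNAs with a higher ratio to their flanks was 5, and 4 to 8 with 1 library left out, reaching 8 without unlabelled replicate 2. Depth limits MT-TT most, with 13 and 19 fragments in the unlabelled libraries, while the SE of its log2 fold change (0.30) was close to that of MT-TR (0.31).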
